A study of Mus musculus with 8 samples.

Results

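The inhibitory interneuron markers are 10 genes that label the GABA-releasing local neurons of the cortex: Gad1, Gad2, Slc32a1, Pvalb, Sst, Npy, Vip, Cck, Calb1 and Calb2. They were chosen by symbol in the authors' table of results and joined by transcript identifier to the table of values per mouse. All 10 were found, and all 10 were among the 10588 genes that reached 10 RPM (reads scaled to a common library size) in 1 mouse or more. The right cortex of C57BL/6 mice, 4 bigenic and 4 nontransgenic, was the source of the poly(A)+ RNA that was sequenced. Bigenic mice (genotype label Camk2a-tTa / deltaNLS-hTDP-43) carried the tetracycline transactivator under the Camk2α promoter, together with a transactivator-dependent human TDP-43 whose nuclear localization signal was mutated (ΔNLS-hTDP-43). Doxycycline, which holds this transgene off, was taken out of the diet at 28 days of age and tissue was collected 10 days later. The nontransgenic mice carried neither transgene and followed the same diet, and 3 of the 4 mice in each group were male. Effects of the transactivator alone and of ΔNLS-hTDP-43 cannot be told apart in this design. The Camk2α promoter is active mainly in glutamatergic projection neurons. Which cells expressed the transgene was not measured here.

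Cortical interneurons make GABA from glutamate with 2 decarboxylases, encoded by Gad1 and Gad2, and load it into synaptic vesicles with the transporter encoded by Slc32a1. Subtypes are told apart by calcium-binding proteins (parvalbumin, calbindin, calretinin) and by neuropeptides (somatostatin, neuropeptide Y, vasoactive intestinal peptide, cholecystokinin). Several of these markers are not exclusive to interneurons, since Calb1 and Cck are also made by groups of glutamatergic neurons. In bulk tissue, fewer cells of a type and less RNA per cell cannot be told apart.

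The neuropeptide genes Sst and Vip are textbook targets of cAMP signalling through the element TGACGTCA, and its core TGACG. Both motifs were searched on both strands of RefSeq promoters (build GRCm38.p6, 250 bases before to 50 bases after each start), and TGACG is part of TGACGTCA. A promoter was found for 8 of the 10 members. Of these 8, TGACG on either strand was present in 4, and TGACGTCA in 1. Over all 32851 promoters, 20.8% held TGACG and 1.79% held TGACGTCA. These shares count single promoters, while the members were counted per gene over 9 promoter windows, so the 2 are not in the same unit. The windows of 30 bases around the matches are shown 5′ to 3′ on the gene's strand because they hold the only letters of these motifs among the members, with the motif in capitals (CGTCA is TGACG on the opposite strand).
Sst, chr16:23890874-23890903, minus strand: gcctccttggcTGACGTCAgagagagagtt
Vip, chr10:5639127-5639156, plus strand: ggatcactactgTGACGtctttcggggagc
Cck, chr9:121495724-121495753, minus strand: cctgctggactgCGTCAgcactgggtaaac
Gad2, chr2:22622282-22622311, plus strand: ccatttcccttcCGTCActctctcatctcc
The motif was present both in members that passed the test described next (Sst and Cck) and in members that did not (Vip and Gad2).

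Of the 10 markers, 4 were lower in bigenic mice, 0 were higher and 6 did not pass the test. Expression was compared with limma on log2(normalized count + 1), and a gene was called at a Benjamini-Hochberg adjusted p-value below 0.05 over all 10588 genes. Calb1 fell most, to 0.459 of the nontransgenic level, and Cck, Sst and Gad1 were lower by smaller amounts. Calls were frequent in this dataset, since 35.9% of all genes were called, 15.4% as lower and 20.5% as higher. The 4 lower members are to be read beside that background. The median log2(fold change) was -0.25 over the 10 members, of which 8 were negative, and 0.029 over all genes. An unadjusted p-value below 0.05 was found for 5 members. No overlap between the groups, with bigenic mice lower, was seen in 4 members and in 16.7% of all genes. No overlap with bigenic mice higher was seen in 0 members and in 22.3% of all genes. The plot of each marker in each mouse shows these values.

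**Figure D1:**
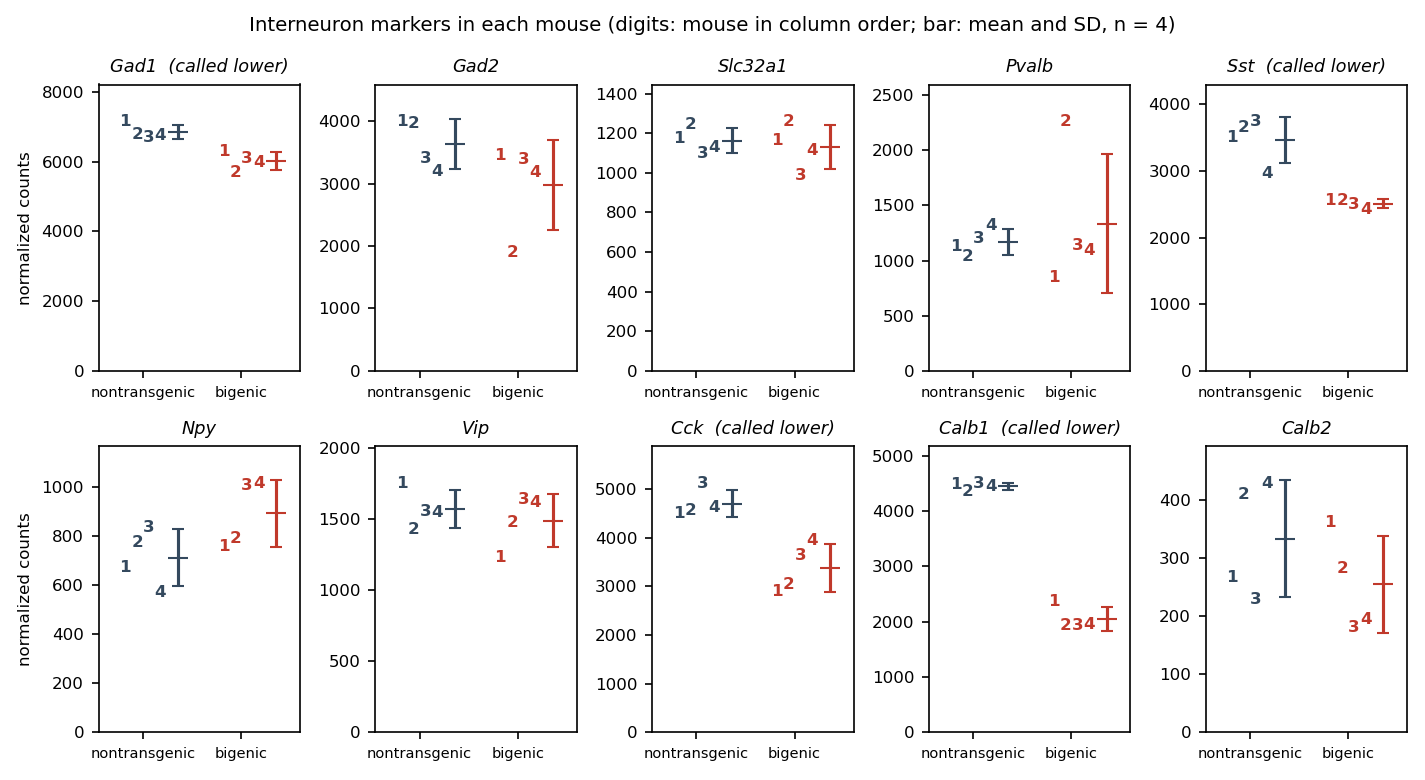
Normalized counts (vertical axes, starting at 0) of the 10 interneuron markers in the 4 nontransgenic (dark) and 4 bigenic (red) mice. Digits are mice in column order and bars are the mean and SD (n = 4); the groups separate for Gad1, Sst, Cck and Calb1, and bigenic mouse 2 lies apart for Gad2 (1901) and Pvalb (2256).

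The data behind these values have limits that touch several markers. Column totals were close in the 8 mice, but what 1 read is worth differed. The deepest bigenic library held about 3.01 times the reads of the shallowest, which was the second bigenic mouse at about 10.6 M. Mice are numbered in the column order of the table, as names only. A transcript without a symbol separated the groups as labelled, at 29375 to 41550 normalized counts in bigenic and 5 to 80 in nontransgenic mice. The first bigenic mouse held the most RNA of striatal projection neuron genes, which summed to 19504 normalized counts there and to at most 15920 in any other mouse. Drd2, a dopamine receptor of these neurons, was at 246 normalized counts in that mouse, at 6 in the second bigenic mouse and at 26 to 73 in the nontransgenic mice. Drd2 reached 10 RPM only in the first bigenic mouse, so it entered the test through the mouse where it was highest. Its 6 normalized counts in the second bigenic mouse are about 3 reads. Striatal projection neurons also use GABA, and the part of this striatal difference in the markers was not tested. Values are therefore also given without the first and second bigenic mice where they moved (an alternative chosen after the data had been seen).

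Among the GABA-synthesis and vesicle genes, only Gad1 passed the test. Gad1 (uc008jzk.1, NCBIM37 chromosome 2, 70391129 to 70440071, plus strand) encodes the decarboxylase that makes most brain GABA. It was at 6304, 5683, 6079 and 5967 normalized counts (bigenic mice) against 7142, 6793, 6690 and 6764 (nontransgenic mice). Every bigenic mouse was below every nontransgenic mouse, but the distance was small. The means were 6008 ± 258 and 6847 ± 201 (SD, n = 4 each), a ratio of 0.877 (95% interval 0.793 to 0.97). The log2(fold change) was -0.19 (SE 0.07, adjusted p = 0.0453, limma). This call lies at the threshold: it was lost without the filter on low values (adjusted p = 0.0831), after rescaling to the same total (0.0682), after quantile normalization (0.106), without the mean-variance trend (0.0632) and in 6 of the 8 limma fits that left out a mouse.

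Gad2 (uc008ink.1, chromosome 2, 22477725 to 22549394, plus strand) encodes the decarboxylase bound to synaptic vesicles. It was at 3444, 1901, 3390 and 3175 normalized counts (bigenic mice) against 3990, 3957, 3404 and 3193 (nontransgenic mice). The second bigenic mouse was far below the rest, while the others overlapped the nontransgenic range. The log2(fold change) was -0.32 (SE 0.18, 95% interval -0.72 to 0.08, adjusted p = 0.189, limma), and it was -0.12 without the second bigenic mouse and -0.14 without the first and second. Slc32a1 (uc008nqk.1, chromosome 2, 158436494 to 158441484, plus strand) encodes the vesicular GABA transporter. Its exons overlap those of Gm14205 on the opposite strand, and whether the counting used strand is not given in the sources used here. Slc32a1 was at 1162, 1257, 988 and 1111 normalized counts (bigenic mice) against 1174, 1245, 1098 and 1130 (nontransgenic mice). The groups overlapped almost fully, with a log2(fold change) of -0.04 (SE 0.09, 95% interval -0.24 to 0.15, adjusted p = 0.721, limma), and -0.15 without the first and second bigenic mice (adjusted p = 0.151). The geometric mean of the 3 genes, taken as 1 level of GABA machinery per mouse, was 2934, 2387, 2732 and 2762 normalized counts (bigenic mice) against 3224, 3224, 2926 and 2902 (nontransgenic mice). It was 0.18 lower on the log2 scale in bigenic mice (11.4 ± 0.13 against 11.58 ± 0.08), and the first bigenic mouse lay within the nontransgenic range.

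Calb1 had the clearest difference of the 10 markers. It encodes calbindin, a calcium buffer of many Sst interneurons that is also made by glutamatergic neurons of the superficial layers and by striatal and hippocampal neurons. Calb1 (uc008sbl.1, chromosome 4, 15808411 to 15835211, plus strand) was at 2371, 1932, 1937 and 1948 normalized counts (bigenic mice) against 4480, 4362, 4502 and 4438 (nontransgenic mice). The groups were far apart and each was tight, at 2047 ± 216 and 4446 ± 61.7 (SD, n = 4 each). The log2(fold change) was -1.12 (SE 0.08, adjusted p = 2.46e-05, limma), a ratio of 0.459 (95% interval 0.404 to 0.521). The first bigenic mouse, with the highest striatal markers, was also the highest bigenic mouse for Calb1, and without the first and second bigenic mice the log2(fold change) was -1.19. The other calcium-binding proteins did not pass the test.

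Pvalb (uc007wot.1, chromosome 15, 78021544 to 78036830, minus strand), the marker of fast-spiking basket and chandelier cells, was at 846, 2256, 1135 and 1091 normalized counts (bigenic mice) against 1123, 1035, 1200 and 1313 (nontransgenic mice). The second bigenic mouse was above every other mouse and the first below every other mouse. The log2(fold change) was 0.09 (SE 0.25, 95% interval -0.46 to 0.65, adjusted p = 0.793, limma). Its sign rested on the second bigenic mouse, since the log2(fold change) was -0.20 without it and -0.06 without the first and second bigenic mice. Calb2 (uc009nko.1, chromosome 8, 112661402 to 112692110, minus strand), which encodes calretinin and is found in many Vip cells, was the marker with the fewest counts. It was at 361, 283, 181 and 194 normalized counts (bigenic mice) against 267, 409, 229 and 429 (nontransgenic mice). The groups overlapped and spread widely, with a log2(fold change) of -0.39 (SE 0.26, 95% interval -0.98 to 0.20, adjusted p = 0.269, limma). Calb2 was called lower with array weights (-0.61, adjusted p = 0.0122) and without the first and second bigenic mice (-0.78, adjusted p = 0.0216).

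The neuropeptide genes divided into Sst and Cck, which fell, and Vip and Npy, which did not pass the test. Sst (uc007ytx.1, chromosome 16, 23889667 to 23890930, minus strand) encodes somatostatin, the peptide of dendrite-targeting Martinotti cells. It was at 2559, 2560, 2495 and 2428 normalized counts (bigenic mice) against 3496, 3650, 3738 and 2966 (nontransgenic mice). The bigenic mice lay within a narrow band below all nontransgenic mice, also the 2 bigenic libraries that stood apart for other genes. The means were 2510 ± 62.8 and 3462 ± 346 (SD, n = 4 each), with a log2(fold change) of -0.46 (SE 0.08, adjusted p = 0.00277, limma). Cck (uc009sdg.2, chromosome 9, 121398943 to 121404807, minus strand) encodes cholecystokinin, the peptide of a class of basket cells and of many glutamatergic cells. It was at 2893, 3048, 3629 and 3947 normalized counts (bigenic mice) against 4506, 4558, 5118 and 4616 (nontransgenic mice). The groups did not overlap. The means were 3379 ± 494 and 4700 ± 283 (SD, n = 4 each), with a log2(fold change) of -0.49 (SE 0.11, adjusted p = 0.00638, limma). Without the first and second bigenic mice, the lowest ones, the value was -0.31 (adjusted p = 0.00595).

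Vip (uc007egk.1, chromosome 10, 4698927 to 4707323, minus strand) encodes the peptide of interneurons that inhibit other interneurons. It was at 1233, 1479, 1636 and 1616 normalized counts (bigenic mice) against 1753, 1429, 1557 and 1551 (nontransgenic mice). The groups overlapped, with a log2(fold change) of -0.08 (SE 0.11, 95% interval -0.32 to 0.16, adjusted p = 0.572, limma). Its sign turned without the first bigenic mouse (0.01), without the first and second (0.05) and with array weights (0.04). Npy (uc009bwt.1, chromosome 6, 49772709 to 49779506, plus strand) encodes neuropeptide Y, found in neurogliaform cells and in part of the Sst cells. It was at 757, 788, 1006 and 1013 normalized counts (bigenic mice) against 671, 774, 832 and 568 (nontransgenic mice). The 2 bigenic mice listed last were above all nontransgenic mice, and the other two were not. The log2(fold change) was 0.33 (SE 0.14, 95% interval 0.01 to 0.65), with an unadjusted p-value of 0.046 and an adjusted p-value of 0.1 (limma). Npy was called higher without the second bigenic mouse (0.38, adjusted p = 0.0452), without the first and second bigenic mice (0.52, adjusted p = 0.0102) and with array weights (0.39, adjusted p = 0.00221).

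Levels per kilobase of exon, which compare genes only roughly, were highest for Sst and Cck. The length was that of all annotated exons of a gene, while the counts stand under a single transcript identifier. Genes with several transcripts may therefore be placed too low. In nontransgenic mice the mean was 5780 normalized counts per kilobase for Sst and 5542 for Cck, and these 2 overlapped. Npy (1256), Pvalb (1122) and Vip (1029) followed and overlapped each other. Calb1 (917) and Gad1 (896) also overlapped, with both below every value of Vip. Gad2 (619), Slc32a1 (414) and Calb2 (192) came last and were separated from their neighbours. In bigenic mice Sst (4190) and Cck (3985) were still first, while the mean of Calb1 (422) was below that of Gad2 (507).

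The subtype markers were next set against the GABA machinery of the same mouse, as log2(marker) minus the mean log2 of Gad1, Gad2 and Slc32a1. This quantity asks whether a marker changed by more or less than GABA synthesis. It was 0.94 lower in bigenic mice for Calb1 (-0.4 ± 0.11 against 0.54 ± 0.09, SD, n = 4 each), with an exact two-sided permutation p = 0.0286, the smallest p that 70 arrangements of 8 mice allow. The difference was 0.51 for Npy (exact permutation p = 0.0571), -0.27 for Sst (exact permutation p = 0.0571) and -0.30 for Cck (exact permutation p = 0.0857). It was 0.10 for Vip, 0.28 for Pvalb and -0.21 for Calb2. The groups overlapped for every marker but Calb1. Leaving out 1 mouse at a time gave -0.07 to 0.50 for Pvalb, turned by the second bigenic mouse, 0.03 to 0.23 for Vip and -0.35 to -0.04 for Calb2. In all, 7 markers were compared. With 8 mice, a single separated marker cannot pass an adjustment over 7 comparisons, so these differences are given as values and no call was made. Because Gad2 is part of this reference, its low value in the second bigenic mouse raises every marker of that mouse. Gad2 was 0.335 of Gad1 in that mouse and 0.472 to 0.583 in the other mice.

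**Figure D2:**
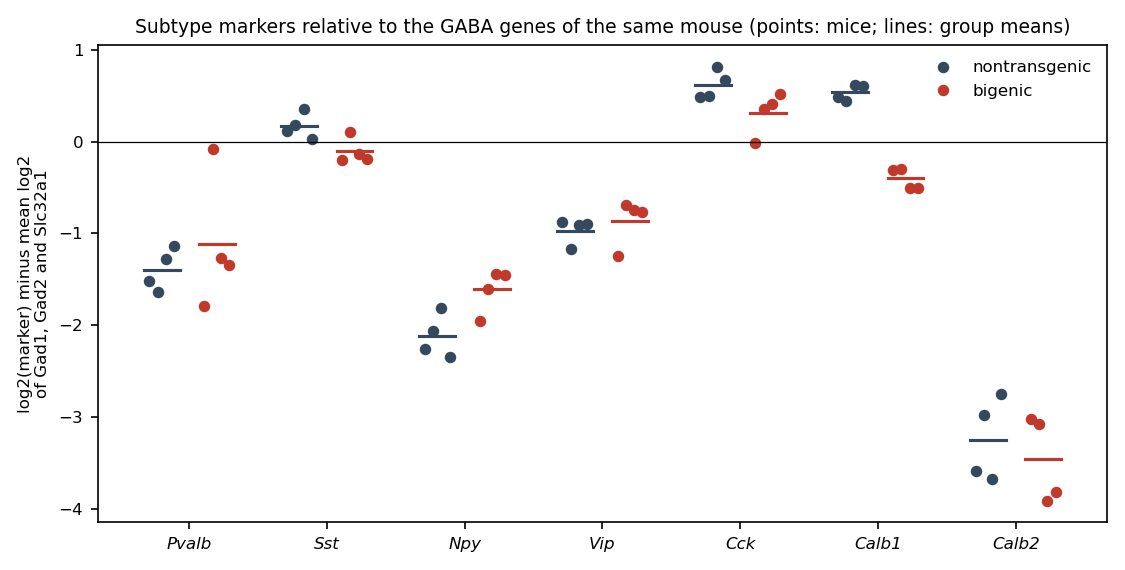
Each of 7 subtype markers as log2(marker) minus the mean log2 of Gad1, Gad2 and Slc32a1 in the same mouse (vertical axis, log2 units), for nontransgenic (dark) and bigenic (red) mice. Points are mice and lines group means; Calb1 separates by 0.94 and Npy lies 0.51 higher in bigenic mice, while 1 bigenic mouse stands apart for Pvalb.

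Other genes of interneuron lineages and subtypes showed both directions, with more lower than higher. Of 52 listed genes 38 passed the filter. Calls were made for 28.9% of the 38, against 35.9% of all genes (15.4% lower and 20.5% higher). Of the 38, 9 were called lower and 2 higher, and the median log2(fold change) was -0.15. The number called lower was 5 without the first or without the second nontransgenic mouse and 14 without the second bigenic mouse. The number called higher was 0 without the second nontransgenic mouse and 4 without the second bigenic mouse. Synpr, a synaptic vesicle protein enriched in Cck and Sst interneurons, fell most clearly, from 2571 to 3171 normalized counts in nontransgenic to 1135 to 1680 in bigenic mice (ratio 0.501, 95% interval 0.412 to 0.609, adjusted p = 0.000385, limma). Grik1 (-0.49), a kainate receptor subunit, Rab3c (-0.55), a vesicle GTPase, Maf (-0.36), a transcription factor of Pvalb and Sst cells, Adarb2 (-0.35), a marker of the caudal lineage, Reln (-0.45), the secreted reelin, Nxph1 (-0.52), a neurexin ligand, and Kcnc2 (-0.34), a Kv3 potassium channel, were also called lower. Several of these lower genes are not exclusive to interneurons, and which cells held their RNA was not measured. Rab3c was at 12132 to 14094 normalized counts in nontransgenic mice, above Gad1 (6690 to 7142).

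The genes called higher, Kcnc1 and Cplx1, are found in fast-spiking and fast-releasing cells but are not exclusive to them. Other listed genes found in fast-spiking cells leaned in both directions. The Kv3 channel Kcnc2 (-0.34) was called lower. Pvalb (0.09), Syt2 (0.16), Kcns3 (0.19) and Ppargc1a (-0.13) were not called. Their limma intervals held both signs, so a rise in them was neither shown nor excluded. The second bigenic mouse was highest for Pvalb, Syt2 and Kcns3. Whether fast-spiking cells changed as a group was not tested. Kcnc1, another Kv3 channel of Pvalb cells, rose from 2263 to 2382 in nontransgenic to 2585 to 3113 normalized counts in bigenic mice (log2(fold change) 0.29, SE 0.07, adjusted p = 0.015, limma). Cplx1, a complexin of synaptic vesicle release, rose from 9316 to 10423 to 13607 to 26585 normalized counts (0.72, SE 0.20, adjusted p = 0.0177, limma), with the second bigenic mouse at the top, and the value was 0.48 without it. Penk, which encodes the opioid peptide enkephalin and is also a striatal gene, was lower (-1.38, adjusted p = 0.0426, limma) but with overlapping groups. It was at 1575 in the first bigenic mouse against 240 to 505 normalized counts in the other bigenic mice. The call of Penk was lost in 6 of the 8 limma fits that left out a mouse, that of Kcnc2 in 5, that of Nxph1 in 3, that of Adarb2 in 2 and those of Reln, Kcnc1 and Cplx1 in 1 each.

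Among transcription factors, Lhx6 and Dlx1 did not pass the test. Lhx6, expressed by Pvalb and Sst cells, was at 280 to 457 normalized counts in bigenic and 307 to 327 in nontransgenic mice (log2(fold change) 0.05, SE 0.15, 95% interval -0.29 to 0.38, adjusted p = 0.832, limma). Dlx1, expressed across GABAergic lineages, was at 258 to 343 against 291 to 365 (-0.12, SE 0.13, 95% interval -0.40 to 0.16, adjusted p = 0.468, limma). These 2 genes were chosen after their values were seen. A second transcript listed under the symbol Dlx1 is the antisense RNA Dlx1as by its RefSeq accession. It was left out of the count above and was lower (-0.36, SE 0.10, adjusted p = 0.0156, limma), and reads of the sense and antisense transcripts cannot be told apart without strand.

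**Figure D3:**
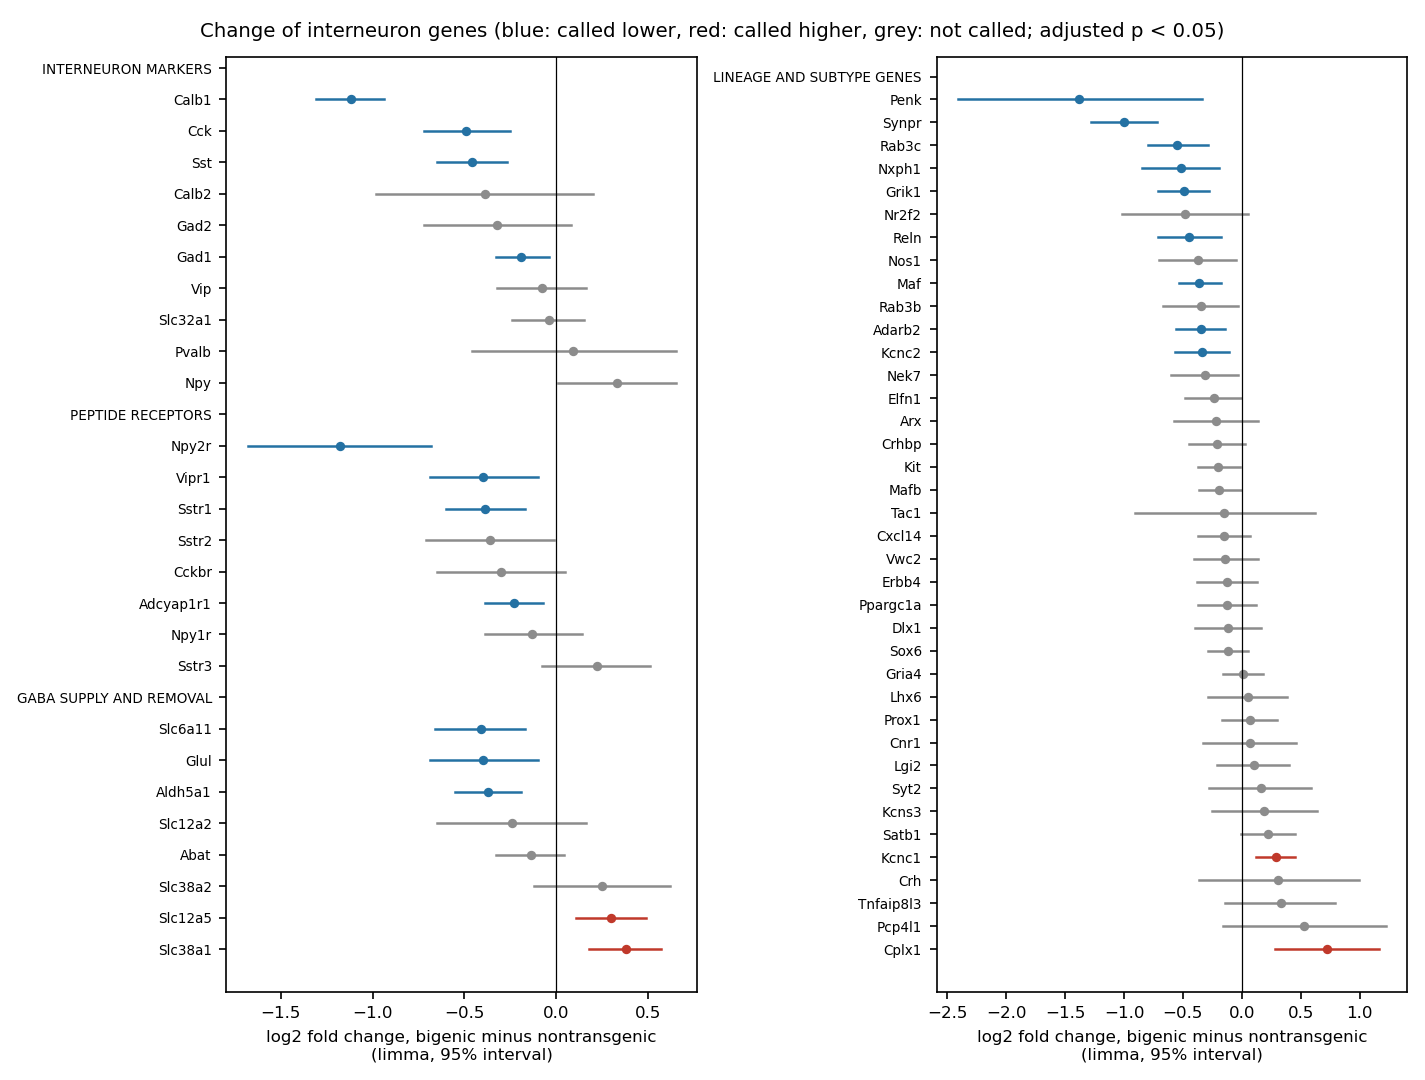
log2(fold change) of bigenic against nontransgenic mice (horizontal axis) with 95% limma intervals for the 10 markers, the peptide receptors, the genes of GABA supply and removal and the lineage and subtype genes. Blue genes were called lower, red higher and grey neither; Penk (-1.38), Npy2r (-1.18), Calb1 (-1.12) and Synpr lie furthest to the left.

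Receptors for the marker peptides were lower where they were called. Of 12 listed receptors 8 passed the filter, 4 were called lower and 0 higher, beside 15.4% lower and 20.5% higher over all genes. The median log2(fold change) of the 8 receptors was -0.33. Leaving out 1 mouse gave 2 to 6 called lower: 6 without the second bigenic mouse, 3 without the last bigenic mouse and 2 without any other. Npy2r, a presynaptic neuropeptide Y receptor, was at 99, 64, 72 and 64 normalized counts (bigenic mice) against 171, 170, 123 and 223 (nontransgenic mice). The groups did not overlap, at a ratio of 0.441 (95% interval 0.312 to 0.623, adjusted p = 0.00316, limma). Npy2r reached 10 RPM only in the last nontransgenic mouse. It therefore entered the test, and the count of called receptors, through the group where it was higher. The somatostatin receptor gene Sstr1 fell by 0.39 on the log2 scale (SE 0.10, adjusted p = 0.0126, limma), and the other called receptors were Vipr1 and Adcyap1r1. Vipr1 encodes a receptor for vasoactive intestinal peptide, while that of Adcyap1r1 binds mainly the related peptide PACAP, which is not among the markers.

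Genes that supply, take up or break down GABA changed in both directions. Of 9 listed genes reported here 8 passed the filter, 3 were called lower and 2 higher, beside 15.4% lower and 20.5% higher over all genes. The median log2(fold change) of the 8 genes was -0.19. Leaving out 1 mouse gave 1 to 3 called lower, with 1 without the second nontransgenic mouse, and 1 to 3 called higher. Aldh5a1, which oxidizes the last product of GABA breakdown, was at 1952, 1638, 2001 and 1908 normalized counts (bigenic mice) against 2348, 2453, 2502 and 2353 (nontransgenic mice). The groups did not overlap, and Aldh5a1 fell by 0.37 on the log2 scale (SE 0.08, adjusted p = 0.00651, limma). The glial GABA transporter Slc6a11 and the glutamine synthetase gene Glul were also called lower, with log2(fold changes) of -0.41 and -0.40. The glutamine transporter Slc38a1 (0.38) and the chloride exporter Slc12a5 (0.30), which sets the response to GABA, were called higher.

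Markers of other cells moved with the genotype and are given beside the interneuron markers. Counts of called markers, here and for the regions, glia and vessels below, stand beside 15.4% lower and 20.5% higher over all genes. Of 20 glutamatergic neuron markers tested, 8 were called lower and 1 higher (median log2(fold change) -0.25), and their summed level was 66808 to 84312 normalized counts in bigenic against 102961 to 111705 in nontransgenic mice. Most of the difference in this sum came from Camk2a alone (22112 to 30548 against 44895 to 49794), and Slc17a7 (0.15), also at high counts, was not called. Nrn1 (-1.14) and Slc17a6 (-1.29), which encode the neurotrophic protein neuritin and a vesicular glutamate transporter, had the smallest adjusted p-values among them. The 10 interneuron markers summed to 21187 to 22490 in bigenic against 26968 to 28602 in nontransgenic mice. Both sums were lower with no overlap, and the part of glutamatergic RNA in the lower Calb1 and Cck was not tested. Within the interneuron sum, Calb1 (mean 2047 against 4446) and Cck (3379 against 4700) differed most in counts. The means of Pvalb (1332 against 1168) and Npy (891 against 711) were higher in bigenic mice. Pan-neuronal markers were called lower in 5 and higher in 2 of 13 (median log2(fold change) 0.20, opposite in sign to most of these calls), with Elavl4 (-0.84) and Syt1 (-0.44) at the smallest adjusted p-values, and their sums overlapped (160497 to 230623 against 182839 to 202102).

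Markers of some neighbouring regions differed. Hippocampal markers were lower in sum (1733 to 1941 against 2921 to 3634 normalized counts), with 2 of 5 called lower, Wfs1 (-1.41) and Neurod1 (-0.90). Most of the difference in this sum came from Wfs1 alone (764 to 892 against 1877 to 2464), and Prox1 (0.07) and Zbtb20 (0.05) were not called. Striatal markers overlapped (10173 to 19504 against 11757 to 15920), with 1 of 12 called lower, Penk. Thalamic markers were called lower in 3 and higher in 1 of 6, with Rora at 0.69, and summed to 4523 to 4837 against 5014 to 5324. Slc17a6, at 271 to 394 against 694 to 874, is 1 of these 3 and is also counted among the glutamatergic markers. Of 14 listed choroid plexus markers 6 passed the filter and 5 were called higher, among them F5 (2.71) and Kl (2.25). F5, Kl, Clic6 and Prlr reached 10 RPM in bigenic mice only. They entered the test through the group where they were higher, so the share called is partly set by the filter. The choroid plexus markers summed to 14275 to 29482 against 6591 to 8221. How these regions took part in the interneuron markers was not tested, and Calb1, Cck and Npy are all expressed in the hippocampus.

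**Figure D4:**
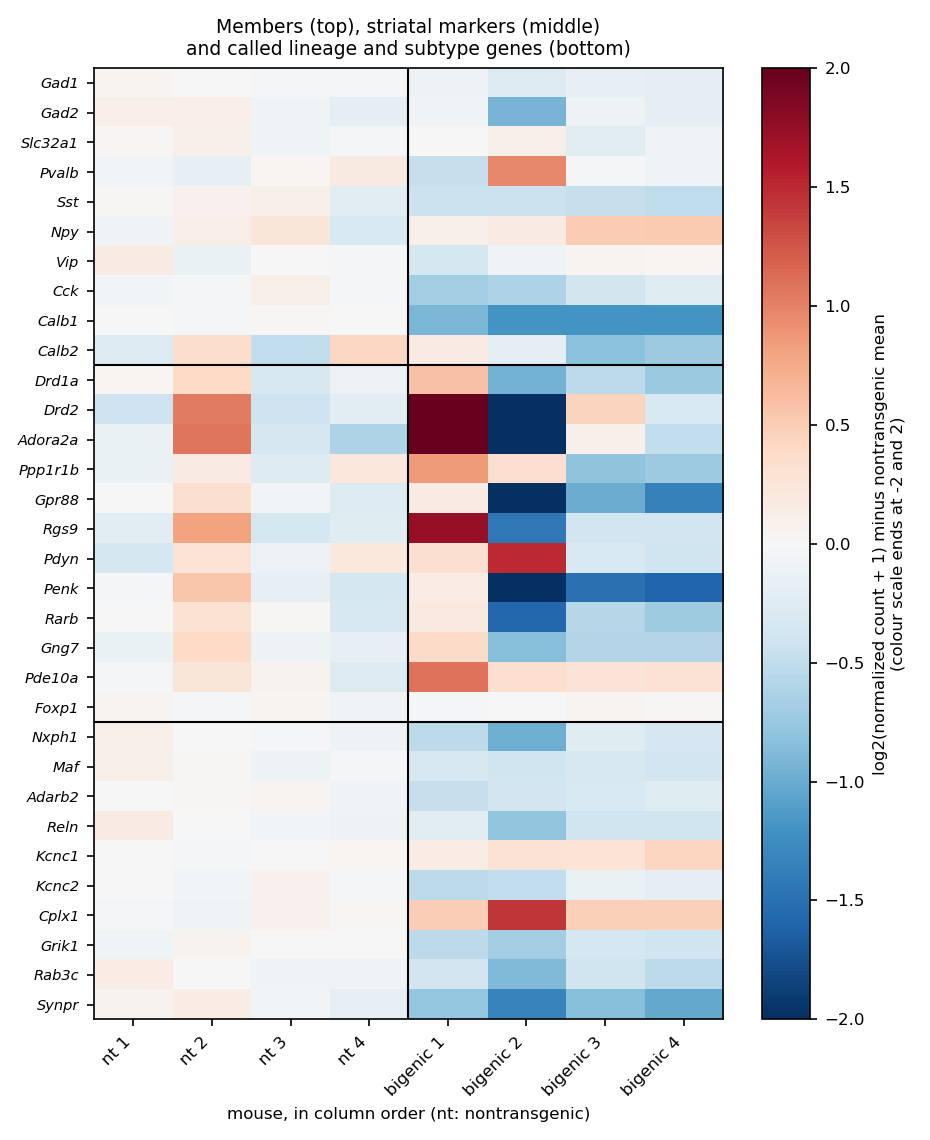
log2(normalized count + 1) minus the nontransgenic mean (colour, ending at -2 and 2) for the 10 markers, the striatal genes and the called lineage genes in each of the 8 mice. Calb1, Sst and Cck are blue in all 4 bigenic mice, while the striatal genes differ most between bigenic mice 1 and 2.

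Glial and vascular markers were mostly lower where called. Astrocyte markers were lower in 5 of 13 (Atp1b2 -0.39 and Gja1 -0.43, with sums of 137899 to 157576 against 167817 to 179247 normalized counts). Microglial markers were lower in 6 of 10 (Cx3cr1 -0.56 and P2ry12 -0.65, with sums of 5438 to 7158 against 7348 to 8697). Oligodendrocyte markers were higher in 1 of 15 (Mobp 0.60, with overlapping sums of 70787 to 94465 and 73097 to 90811). Endothelial and mural markers were lower in 1 of 12 (Flt1 -0.26, with overlapping sums of 6837 to 7720 and 7637 to 8895). The calls of Mobp and Flt1 were each lost when single mice were left out. Leaving out 1 mouse gave 2 to 6 pan-neuronal, 0 to 5 striatal, 1 to 3 thalamic, 4 to 8 microglial and 0 to 2 endothelial and mural markers called lower.

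The genes whose log2 values over the 8 mice were most like those of a marker are given as a description, since the 8 values share their libraries, depth and genotype groups. The highest Pearson r was 0.991 for Gad1 (with Vat1l), 0.991 for Gad2 (with Dhx40), 0.988 for Pvalb (with Shc3), 0.990 for Sst (with Sox2), 0.990 for Npy (with Zfp868) and 0.989 for Cck (with Otub2). For Pvalb the value was 0.94 without the second bigenic mouse. With group means subtracted, the closest genes were Lpl for Gad1 (0.981), Tbl1xr1 for Gad2 (0.992), Gmeb2 for Pvalb (0.995), Ppap2b for Sst (0.966), Zfp868 for Npy (0.988) and Lhx2 for Cck (0.991). No other member was the closest gene to any of these 6 markers.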

How the data were processed

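The authors sequenced poly(A)+ RNA of the right cortex, 4 mice per group. They trimmed adaptors with cutadapt, mapped the reads to mm9 with Bowtie 0.12.7, kept uniquely mapping reads and counted them per exon with bedtools, then merged exons into genes. The authors tested raw counts with DESeq2. The deposited signal is a table of 28662 transcripts whose whole numbers are reads rescaled in each mouse, then rounded, so tests made for raw counts could not be used. Table columns show the genotype but not the replicate number. Columns of the authors' own comparison (log2 fold changes, their errors, p-values and q-values) were not used.

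Values were transformed as log2(value + 1), which understates changes of low genes. Genes with at least 10 RPM in at least 1 mouse (10588) were compared with limma 3.58.1 in R 4.3.3 (lmFit, eBayes with trend), adjusted p-values (Benjamini-Hochberg) being called below 0.05. The script was tested on simulated data. For single values, an exact permutation test (two-sided, 70 arrangements, written in Python 3.11.15) was used. Positions come from GENCODE on NCBIM37 (mm9), and promoters from RefSeq GRCm38.p6, used only for sequence. The limma p-values set a group difference against the spread between these mice, moderated over all genes tested. The permutation p-values count arrangements of the group labels over these mice.

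Depth was estimated from the step between whole numbers in each column, and ranged from about 10.6 M to 31.9 M reads. The density fit and the lower limit of this search were revised after the first estimates, and values from earlier work on these data, had been seen. For the second nontransgenic mouse, 20.5 M reads could not be told from 41.1 M. Simulated columns were also recovered by the version before the revision, so they do not settle this. No fold change or test uses these depths.

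The members and lists were chosen with earlier results of these data known. The genes named are the 10 members, each called lineage and subtype gene, from each other list the 2 called genes of smallest adjusted p-value, and the genes most alike to 6 markers; others were named after their values were seen. Within a list, a transcript whose RefSeq accession belongs to another gene was left out. This identity rule was added after the results were seen and removed 1 call, on the row of Dlx1as. Alternatives were other pseudocounts, other filters, 2 other scalings, array weights, no trend, leaving out each mouse and, added later, leaving out 2 bigenic mice. Of the list of GABA supply and removal, 2 genes are not reported here.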

Additional observations from a re-analysis of the deposited data

Results flagged for a closer look

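Of 80 groups of 4 mice, each a named gene in bigenic or nontransgenic mice, 4 held 1 mouse far from the other 3, and chance gives about 1 in 20. Calb1 was at 2371 normalized counts in the first bigenic mouse and at 1948 in the nearest of the others. Cplx1 was at 26585 in the second bigenic mouse (nearest 13861), and Syt1 was at 36369 in the same mouse (nearest 30395). Cx3cr1 was at 881 in the third bigenic mouse (nearest 809). The second bigenic mouse had the shallowest library, and the part of depth in its values was not tested.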

How the results depend on the processing

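No direction of a called gene was reversed. Sst, Cck and Calb1 kept their call under every alternative run. Gad1 was no longer called with no filter on low values (-0.19), after rescaling to the same total (-0.19), after quantile normalization (-0.17), with no mean-variance trend (-0.19) and in 6 of 8 leave-one-out fits (range -0.21 to -0.16). Npy was called with array weights (0.39) and without the first and second bigenic mice (0.52), with a leave-one-out range of 0.22 to 0.41. Calb2 was called with array weights (-0.61) and without those 2 mice (-0.78). Under each of these 2 alternatives 5 members were called lower and 1 higher, against 4 and 0. The leave-one-out range was 3 to 4 called lower and 0 to 1 called higher, the latter without the second bigenic mouse. Array weights called 2844 genes lower and 3611 higher, against 1629 and 2167. Of 506 values of other named genes, 471 kept their call. No paired analysis was possible because the columns carry no replicate number that matches the labels, so the planned fit with a replicate block was not run. With 4 mice in each group, depths that differ by up to 3.01 times among bigenic mice and values already normalized, small changes such as that of Gad1 are at the limit.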
